A study of Mus musculus with 2 samples.

Results

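Cycling myeloid cells are macrophages, monocytes and related cells of the tumour stroma that carry transcripts of cell division. They were picked from barcodes with at least 5000 unique molecular identifiers (UMIs), at least 500 genes and at most 10% mitochondrial UMIs. The gate asked for at least 500 CPM, a gene's counts per 1000000 counts, of Tyrobp plus Fcer1g, the signalling adaptors of myeloid cells. It also asked for less than 5000 CPM of S100a8 plus S100a9, less than 2000 CPM of Col1a1 plus Col3a1 and less than 200 CPM of Cpa3 plus Cd3e, which set aside neutrophils, fibroblasts, mast cells and T cells. A gated cell was called cycling when it held at least 10 UMIs summed over 6 division genes: Mki67, Top2a, Cdk1, Ccnb1, Cdc20 and Birc5. This rule gave 247 cycling cells among 3022 gated myeloid cells and 21172 barcodes in all.

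The cells came from allografts of pancreatic ductal adenocarcinoma in mice of genotype p16-CreERT2/R26-LSL-tdTomato. In these mice, a tamoxifen-dependent Cre recombinase made from the p16 locus removes a stop cassette in front of a tdTomato reporter, so that tdTomato marks cells in which the locus was active when Cre was induced, and their descendants. Stromal cells with and without tdTomato were sorted and each sort gave 1 library, called Tom positive and Tom negative below, to ask what p16-high stromal cells do in the tumour. Both groups share this genotype and this tumour, and blood was flushed out with saline before the tumours were dissociated. The labels give neither the number or age of the animals, nor whether animals were pooled, nor the time of induction. With 1 library per sort there is no replicate and no test between sorts, and every 95% interval here covers counting error only. Pairs of values are given with Tom positive first and Tom negative second.

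A dividing cell first commits to the cycle through D-type and E-type cyclins and E2F factors, then copies its DNA in S phase, and then separates the copies on a spindle in mitosis. Macrophages in tissue can divide in response to the growth factors CSF1 and CSF2, and tumours hold both dividing macrophages and macrophages that derive from blood monocytes. The Cdkn2a locus, from which Cre is made in these mice, encodes p16 and a further protein from an overlapping frame. Both proteins hold back the cycle. Counts of 3' ends do not tell these transcripts apart.

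In the Tom positive library 87 of 1255 gated cells were cycling, a share of 6.93% (exact binomial 95% interval 5.59 to 8.48). In the Tom negative library 160 of 1767 were, a share of 9.05% (7.76 to 10.5). The ratio of the shares was 0.766 (0.583 to 1.0001), with 1 at the very edge of its interval. Without barcodes present in both libraries, described below, it was 0.466 from 27 and 104 cycling cells. Requiring at least 20 UMIs gave 5.02% and 6.79%, and requiring at least 500 CPM of the 6 genes gave 6.29% and 7.92%. After each cell was thinned to 5000 UMIs, the shares with at least 2 such UMIs were 7.73% and 9.56%. The share was the lower one in the Tom positive library under each of these rules.

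Free RNA can place single UMIs of a division gene in a cell that does not divide, so single UMIs were not read as division. At least 1 UMI of the 6 genes was seen in 37.7% and 43.7% of gated cells, whose median depth was 20446 UMIs and 21445 UMIs. In barcodes gated as neutrophils, which do not divide once mature, at least 1 UMI was seen in 8.75% (14 of 160) and 7.29% (29 of 398), with medians of 3837 and 2817 UMIs per barcode. Neutrophils with at least 5000 UMIs, thinned to that depth, held at least 1 UMI in 1 of 16 and 5 of 20, beside 17.0% and 21.4% of gated myeloid cells. At least 10 UMIs were reached by 0 of 160 neutrophils, which allows a share of up to 2.28%, and by 1 of 398.

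**Figure D1:**
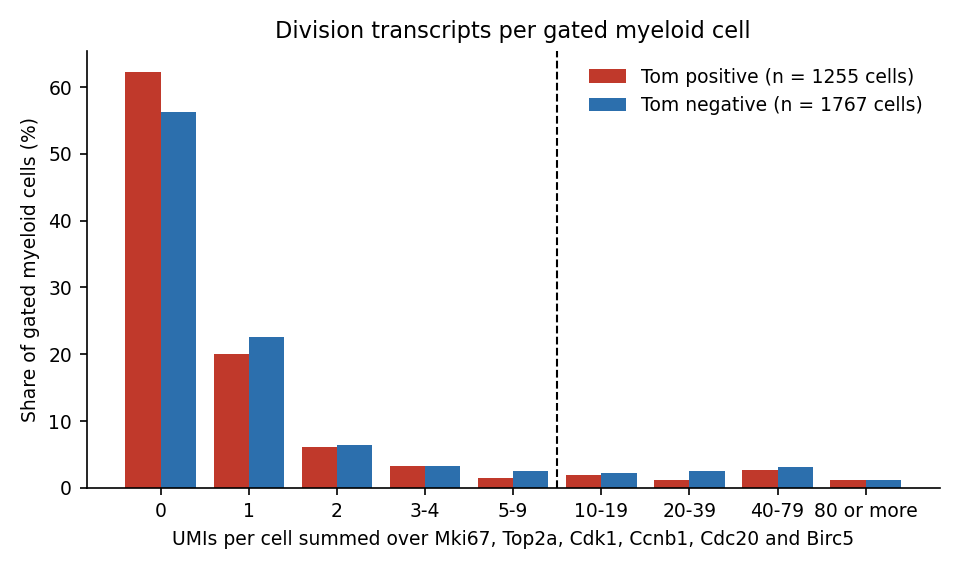
Share of gated myeloid cells (y axis, %) by UMIs per cell summed over the 6 division genes (x axis), in the Tom positive library (red, 1255 cells) and the Tom negative library (blue, 1767 cells). Cells right of the dashed line are the 87 and 160 cycling cells. Cells with 0 UMIs make up 62.3% and 56.3% of the gate.

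Markers bore out the label. Mki67, a nuclear protein of cycling cells, was detected in 84 of 87 and 155 of 160 cycling cells, and Top2a, which untangles DNA, in 77 of 87 and 142 of 160. Cdk1, the kinase that drives entry into mitosis, was detected in 76 of 87 and 140 of 160. These 3 genes belong to the rule, so their presence is no finding. Csf1r, the receptor for CSF1 and no part of the gate, was detected in 85 of 87 and 157 of 160 cycling cells. Its level per cell had a median of 313 CPM (quartiles 213 and 444) in the Tom positive library and 268 CPM (186 and 391) in the Tom negative library.

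The 6 genes summed to a median of 47 UMIs per cycling cell in the Tom positive library (quartiles 18 and 71.5, highest 193) and 36 (19.75 and 64.25, highest 173) in the Tom negative library. In summed counts, Top2a was the most abundant of them at 393 and 352 CPM. Birc5, the survivin subunit of the complex that corrects spindle attachments, followed at 259 and 247 CPM, then Mki67 at 252 and 216 CPM and Cdk1 at 177 and 171 CPM. Ccnb1, the cyclin B1 partner of Cdk1, stood at 94.4 and 107 CPM and Cdc20, which starts the destruction of cyclin B1, at 61.7 and 59.3 CPM. All 6 levels differed by less than 1.5-fold between the sorts.

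Cycling cells were compared with the 782 and 995 cells of the same gate that held 0 UMIs of the 6 genes, called 0-UMI cells. Both sets were cut from the same counts, so the comparison is a description and no test of it is given. Counts were summed over the cells of each set and scaled to CPM, from totals of 3546960 and 6356106 UMIs for cycling cells and 14992075 and 19147555 UMIs for 0-UMI cells. A gene at 0 counts in the cycling cells is below 0.846 and 0.472 CPM, the level of 3 counts. Differences are log2 of CPM plus 1, and a gene is called higher or lower when it differs by at least 1.5-fold on that scale in the same direction in both libraries. Of 8304 genes at 10 CPM or more, 1201 (14.5%) were higher in cycling cells and 356 (4.29%) lower, and 7 (0.0843%) passed 1.5-fold in opposite directions. In the Tom positive library alone 19.8% were higher and 7.7% lower, and in the Tom negative library alone 17.4% and 5.86%. A gene that reached 10 CPM only in the set where it was high is favoured to differ by this filter, so counts over lists are descriptions. The median difference over all these genes was 0.13 and 0.10. Scaling by TMM factors in place of the totals moved that median by -0.16 and -0.14 and changed the split from 1201 higher and 356 lower to 834 higher and 588 lower.

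Cycling cells held far more UMIs per cell than 0-UMI cells. Their median was 39134 and 38548 UMIs and 6388 and 6374 genes per cell, against 17676 and 17903 UMIs and 4086 and 4127 genes in 0-UMI cells. The median mitochondrial share was 4.996% and 4.88% in cycling cells against 3.36% and 4.31%. A cell with more UMIs reaches 10 division UMIs more easily, and the part of depth in the other differences was not tested except where thinned or depth-limited values are given.

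A number of cell barcodes occurred in both libraries. Of the cycling cells, 60 of 87 and 56 of 160 had their barcode in the other library as well, there with a median of 843 and 608.5 UMIs. The highest such copy had 1605 and 1021 UMIs, so that none passed the gate in both libraries. Of 0-UMI cells, 134 of 782 and 18 of 995 had such a barcode, and of all gated cells 327 of 1255 and 102 of 1767. Leaving these barcodes out thus removes a larger part of the cycling cells than of the 0-UMI cells and lowers the share of cycling cells. Scrublet, which looks for cells that resemble 2 profiles added together, called 2 of 87 and 0 of 160 cycling cells doublets. Counts of 8 defining genes of other lineages reached 200 CPM in 4 of 87 and 1 of 160. Values without these cells are given where they differ.

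Markers of other cell types were summed in the cycling cells, where the gate itself limits S100a8, S100a9, Col1a1, Col3a1, Cpa3 and Cd3e. The 9 neutrophil genes summed to 738 against 1277 CPM in 0-UMI cells of the Tom positive library and 772 against 852 CPM in the Tom negative library, of which Mmp9 made up 662 and 710 CPM in cycling cells, while Ly6g was at 0 there. The 10 fibroblast genes summed to 1139 against 1612 CPM and 1477 against 1798 CPM, with Pdgfra at 6.48 and 5.66 CPM. At least 1000 CPM of fibroblast genes was held by 58 of 87 and 151 of 160 cycling cells and by 710 of 782 and 969 of 995 0-UMI cells. The neutrophil and fibroblast sums were lower in cycling than in 0-UMI cells of both libraries. The 8 endothelial genes had a higher sum in the cycling cells of the Tom positive library, at 197 against 118 CPM, and 73.8 against 79.6 CPM in the Tom negative library. The 8 T and NK cell genes had the same order at 27.6 against 9.40 CPM and 1.42 against 2.45 CPM, with Cd3e, Cd3d and Cd3g at 0 in the cycling cells. Few cells weighed on these sums. The endothelial median per cell was 51.1 against 67.1 CPM in the Tom positive and 20.5 against 0 CPM in the Tom negative library. At least 1000 CPM of endothelial genes was held by 3 of 87 and 1 of 160 cycling cells. The T and NK median was 0 CPM in every set, and 1 of 87 Tom positive cycling cells held at least 1000 CPM. Of the epithelial genes 3 of 8 were at 0 and the sum was 6.20 and 8.18 CPM. Mast cell, B cell and mural cell genes summed to between 7.24 and 43.6 CPM, and erythroid genes to 0.846 and 0.315 CPM. The part of these cell types in the results was not tested, beyond the values given without the cells concerned.

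Promoters are shown because members that move together here fall into late and early genes, which textbooks tie to different motifs. Late genes, expressed in G2 phase and mitosis, often carry a cell cycle genes homology region (CHR), the letters TTTGAA or TTCGAA, near a CCAAT box, the letters CCAAT. Early genes of replication often carry an E2F site, here TTCGCGC or TTGGCGC. Both strands were searched in RefSeq promoter windows of GRCm38.p6 from 250 bases before to 50 bases after each start, and overlapping matches were kept. Shown are Cdk1 and Top2a from the rule, Ccnb2 as a late gene that was no part of it and Mcm5 as an early one, each from 200 bases before to 20 bases after its start, on the gene's own strand and from 5′ to 3′. Capitals mark CHR, CCAAT and E2F matches on either strand. Cdk1 lies at chr10:69352893-69353112 (minus strand), Top2a at chr11:99024170-99024389 (minus strand), Ccnb2 at chr9:70421535-70421754 (minus strand) and Mcm5 at chr8:75109309-75109528 (plus strand).
Cdk1: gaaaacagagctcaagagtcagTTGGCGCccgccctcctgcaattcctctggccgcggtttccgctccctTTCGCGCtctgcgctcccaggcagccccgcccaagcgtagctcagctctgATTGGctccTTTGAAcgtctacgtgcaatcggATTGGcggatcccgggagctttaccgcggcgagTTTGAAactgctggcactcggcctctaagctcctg
Top2a: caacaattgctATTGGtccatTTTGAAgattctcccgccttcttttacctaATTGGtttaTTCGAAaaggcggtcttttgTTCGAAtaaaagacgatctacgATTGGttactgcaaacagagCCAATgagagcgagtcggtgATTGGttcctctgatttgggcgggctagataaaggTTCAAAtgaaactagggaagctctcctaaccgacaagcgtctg
Ccnb2: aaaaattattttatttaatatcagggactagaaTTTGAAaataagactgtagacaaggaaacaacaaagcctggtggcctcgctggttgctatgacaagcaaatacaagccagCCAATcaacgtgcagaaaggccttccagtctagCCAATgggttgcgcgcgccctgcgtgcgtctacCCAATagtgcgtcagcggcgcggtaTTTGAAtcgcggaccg
Mcm5: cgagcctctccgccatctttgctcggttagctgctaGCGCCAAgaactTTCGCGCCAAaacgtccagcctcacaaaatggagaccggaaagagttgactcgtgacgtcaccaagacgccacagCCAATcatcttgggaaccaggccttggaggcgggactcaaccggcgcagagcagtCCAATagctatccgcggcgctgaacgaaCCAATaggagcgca

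Of the 6 rule genes, 4 held a CHR match, which Ccnb1 and Birc5 did not, and Birc5 held no match of the 3 kinds. Cdk1 and Top2a were shown because each has both CHR and CCAAT matches. In Cdk1 the CHR matches began at positions -71 and -15 counted from the start, with E2F matches at -178 and -130. In Ccnb2 the CHR matches began at -167 and at 5, with CCAAT boxes at -87, -54 and -21 between them, and no E2F match was found. Mcm5 held E2F matches at -164, -152 and -149, the last 2 overlapping, and no CHR. Across the lists described below, a CHR was found in 41 of 58 windows (70.7%) of the mitotic cyclin, kinetochore and spindle genes and in 12 of 60 (20.0%) of the licensing, fork and nucleotide genes, beside 19.2% of all 32851 windows. CCAAT was found in 72.4%, 56.7% and 37.4%, and the E2F letters in 10.3%, 33.3% and 3.89%, in the same order. Windows matched 52 of 62 mitotic and 50 of 61 replication genes. A match describes letters only, and binding was not measured.

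Among the genes of commitment to the cycle, 13 of 17 measured were higher in cycling cells and 0 lower, with a median difference of 1.40 and 1.43. Ccnd1, the cyclin D1 that opens the cycle in response to growth factors, stood at 66.0 against 31.9 CPM in the Tom positive library and at 62.6 against 35.6 CPM in the Tom negative library. Cdk4, the kinase partner of D-type cyclins, was higher at 116 against 72.8 CPM and 128 against 75.9 CPM. The other D-type cyclins were not called: Ccnd2 was at 80.1 against 76.0 CPM and 100.1 against 104 CPM. Ccnd3 was at 105 against 127 CPM and 109 against 126 CPM. Of the D-type cyclins, then, Ccnd1 alone passed the 1.5-fold limit against 0-UMI cells in both libraries. Cells with 1 to 9 division UMIs held Ccnd1 at 59.5 and 58.2 CPM, near its level in cycling cells.

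Later steps of commitment differed more. Ccne1 encodes an E-type cyclin, a partner of Cdk2 at the start of S phase, and was at 21.99 against 2.40 CPM and 29.1 against 2.25 CPM. Ccne2, the second E-type cyclin, was at 19.45 against 1.07 CPM and 21.1 against 1.41 CPM. E2f8, a repressor that E2F activators induce, was at 33.0 against 2.47 CPM and 34.9 against 2.25 CPM. These cyclins and E2f8 differed by more in either library than Ccnd1 did. Foxm1, which turns on late genes, was at 47.6 against 1.13 CPM and 36.5 against 0.940 CPM. Ccne1, Ccne2, E2f8 and Foxm1 reached 10 CPM only in the cycling cells, so the filter favours a difference for them, unlike for Ccnd1. With a low filter of 50 CPM the median of the commitment list was -0.057 in the Tom negative library. Myc, a growth regulator, was not called, at 16.9 against 10.1 CPM and 17.0 against 14.5 CPM.

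Genes that copy DNA were higher almost without exception. Of origin licensing and helicase genes, 17 of 17 measured were higher, with a median difference of 2.72 and 2.70, and 1 further member, Gins3, stayed under 10 CPM. Mcm5, a subunit of the replicative helicase whose promoter is shown above, was at 78.9 against 5.07 CPM and 83.4 against 5.12 CPM. Cdc6, which loads that helicase, was at 13.3 against 1.40 CPM and 15.7 against 1.46 CPM. Gmnn encodes geminin, which blocks a second round of loading, and was at 81.8 against 12.7 CPM and 85.6 against 12.3 CPM. Loaders and their inhibitor were thus both higher in cells pooled over all phases.

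All 24 measured replication fork genes were higher, with a median of 2.30 and 2.32. Pcna, the sliding clamp, was among the smaller differences at 134 against 47.2 CPM and 150.4 against 44.2 CPM. Clspn, which signals stalled forks, was among the larger ones at 46.2 against 0.8004 CPM and 39.6 against 0.783 CPM. The 0-UMI cells thus held Pcna at a far higher level than Clspn, and the cycling cells held both.

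Supply and repair of DNA had the same direction. Of 18 nucleotide synthesis genes 17 were higher (median 1.69 and 1.63). Rrm2, the cell cycle-dependent subunit of ribonucleotide reductase, was at 101 against 1.40 CPM and 116 against 1.78 CPM. Tk1, a thymidine kinase of S phase, was at 67.7 against 1.07 CPM and 84.8 against 1.57 CPM. Mthfd1, an enzyme of folate metabolism, was the exception, with differences of 1.19 and 0.47. All 13 measured repair genes were higher (3.22 and 3.28). Pclaf, a partner of Pcna, was the highest of the genes named by rank, at 367 against 1.60 CPM and 398 against 2.98 CPM, ratios of 229 (154 to 359) and 134 (103 to 177).

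All 16 measured histones and nuclear proteins of S phase were higher, with a median of 2.30 and 2.37. H2afz, a histone variant, was at 1569.5 against 361 CPM and 1862 against 422 CPM. Hmgb2, a DNA-bending protein, was at 858 against 110.5 CPM and 857 against 120.5 CPM. Stmn1, which takes microtubules apart, was at 532 against 18.4 CPM and 554 against 21.4 CPM. The libraries were alike in these genes. They were not alike in Hist1h2ap, a replication-dependent histone H2A gene, at 156 against 1.73 CPM in the Tom positive and 701 against 7.36 CPM in the Tom negative library. Between the sorts this is a log2 difference of -2.16 in cycling cells and -1.61 in 0-UMI cells. Hist1h2ap belongs to a family of near-identical genes, so its counts can be shared with copies.

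Mitotic genes gave the largest medians of the lists outside the rule. All 15 measured mitotic cyclins and kinases were higher, with a median of 4.52 and 4.40. Ccna2, the cyclin A2 of S and G2 phase, was at 137 against 0.734 CPM and 145 against 1.46 CPM. Ccnb2, a B-type cyclin whose promoter is shown above, was at 98.4 against 3.27 CPM and 103 against 3.92 CPM. Plk1, the polo kinase of mitosis, was at 61.7 against 0.4002 CPM and 47.0 against 0.627 CPM. Each of these was close to absent from 0-UMI cells and reached 10 CPM only in the cycling cells. None was a rule gene, but the filter favours a difference for such genes, so their count is no support for the list. The same limit applies to the counts of the replication, repair, kinetochore and spindle lists, and to part of the count of the commitment genes.

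All 18 kinetochore genes were higher (4.01 and 3.71). Cenpf, a kinetochore protein of G2 phase and mitosis, was at 106 against 0.467 CPM and 101 against 0.470 CPM. Cenpa, the histone that marks centromeres, kept a clear level in 0-UMI cells, at 189 against 15.4 CPM and 187 against 20.0 CPM.

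All 29 spindle and cytokinesis genes were higher as well (4.60 and 4.14). Kif11, the motor that pushes spindle poles apart, was at 111 against 1.07 CPM and 95.03 against 0.940 CPM. Racgap1, needed to pinch the cell apart, was at 142 against 4.47 CPM and 129 against 4.70 CPM. Tubb5, a tubulin that cells also use between divisions, had the smallest difference of the list, at 1533 against 484 CPM and 1594 against 508 CPM.

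Chromosome structure and mitotic exit completed the picture, with an exception in each. Of 14 condensin and cohesin genes 13 were higher (2.22 and 2.15). Smc2, a condensin subunit, was at 178 against 8.87 CPM and 178 against 7.78 CPM. Pttg1, the securin that guards sister chromatids, was not called, at 25.4 against 22.9 CPM and 24.1 against 21.5 CPM. Of 11 genes of ubiquitin transfer and mitotic exit 10 were higher (1.89 and 2.00), and Cdc27, a subunit of the complex that tags cyclins, was not. Ube2c, the enzyme that works with that complex, was at 344 against 3.87 CPM and 355 against 6.32 CPM.

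**Figure D2:**
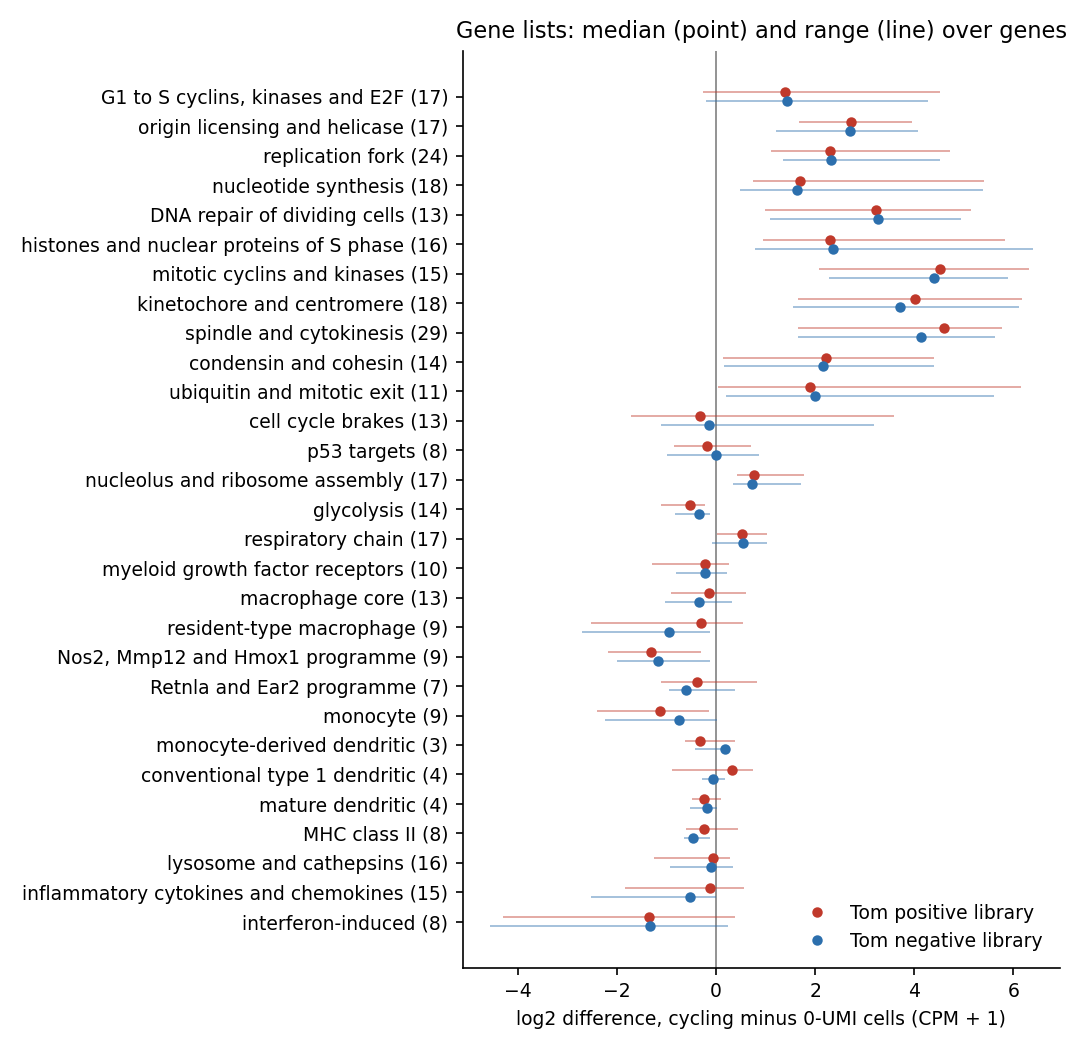
Log2 difference of CPM plus 1 between cycling and 0-UMI cells (x axis) for gene lists (y axis, number of genes measured in parentheses), in the Tom positive (red) and Tom negative (blue) libraries. Points are medians over genes and lines run from the lowest to the highest gene. Lists of replication and mitosis lie right of 0, from 1.63 to 4.60, and the Nos2, Mmp12 and Hmox1 programme and interferon-induced genes lie left of 0 in both libraries.

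Cycling cells ranged from cells led by replication transcripts to cells led by mitotic transcripts. For each cell, CPM were summed over 61 genes of licensing, forks and nucleotides and over 59 mitotic genes that were not in the rule, which are the 62 of the mitotic lists without the tubulins Tubb5, Tuba1b and Tubb4b. Cells also use these 3 tubulins between divisions. The replication sum had a median of 2495 and 2728 CPM in cycling cells against 601 and 603 CPM in 0-UMI cells. The mitosis sum had a median of 3563 and 3267 CPM against 137 and 159 CPM. The mitosis sum was the larger one in 54 of 87 (62.1%) and 91 of 160 (56.9%) cycling cells and in 2.43% and 4.92% of 0-UMI cells. With the 3 tubulins kept in the sum, an alternative chosen after seeing the data, it was the larger one in 80.5% and 78.8% of cycling cells and in 71.1% and 73.3% of 0-UMI cells. The share of mitosis-led cells therefore depends on the genes summed.

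Split by the larger sum, the cycling cells were also read for genes that entered neither sum. Ccne2 was at 3.27 CPM in the mitosis-led cells against 44.0 CPM in the replication-led cells of the Tom positive library and at 0.824 against 48.2 CPM in the Tom negative library. Ccnb1 and Cdc20 were used to choose the cells. Ccnb1 had the opposite order at 126 against 46.1 and 151 against 48.2 CPM, and so had Cdc20 at 91.2 against 17.0 and 91.8 against 15.8 CPM. Csf1r was at 354 against 282 CPM and 295 against 304 CPM. Cdkn2a was low in both kinds, at 15.9 against 19.9 CPM and 11.3 against 13.6 CPM. In the Tom positive library tdTomato was at 1244 CPM (1197 to 1292) in mitosis-led against 831 CPM (784 to 880) in replication-led cells. In the Tom negative library it was at 28.6 against 35.0 CPM.

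Across the limit of 10 UMIs the mitosis sum was higher in both libraries, while the replication sum had no common order. Cells just inside the limit, with 10 to 14 UMIs, were few (14 and 21 cells). They had a median replication sum of 1084 and 1087 CPM and a median mitosis sum of 1770.5 and 2004 CPM. Cells just outside, with 5 to 9 UMIs (18 and 45 cells), had 983 and 1386 CPM for replication and 778 CPM for mitosis in both libraries. The rule genes peak late in the cycle. The lower quartile of the replication sum of cycling cells, 1356 and 1535 CPM, was reached by 43 of 386 (11.1%) and 73 of 612 (11.9%) cells with 1 to 9 UMIs. It was reached by 23 of 782 (2.94%) and 13 of 995 (1.31%) of the 0-UMI cells.

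**Figure D3:**
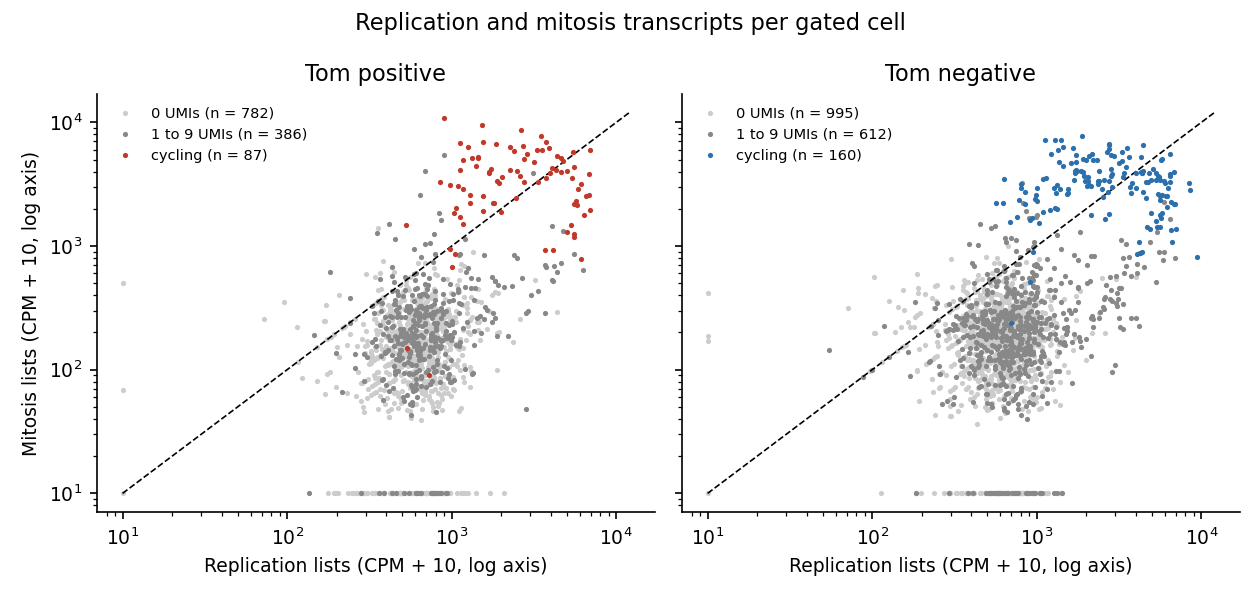
Mitosis sum against replication sum per gated cell (both axes CPM plus 10, log axes) in the Tom positive (left) and Tom negative (right) libraries, with cycling cells in colour and cells of 1 to 9 and 0 UMIs in grey. The dashed line marks equal sums. Cycling cells lie on both sides of it, 54 of 87 and 91 of 160 above it, and some cells with 1 to 9 UMIs extend to the right below it.

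Of 13 measured genes that hold back the cycle, 3 were higher and 3 lower, with a median of -0.33 and -0.14. Cdkn2c encodes p18, a relative of p16 that also binds Cdk4 and Cdk6, and was higher at 61.2 against 4.14 CPM and 54.1 against 5.01 CPM. Cdkn2d, which encodes another relative, was higher at 45.1 against 14.9 CPM and 54.1 against 15.7 CPM. Rbl1, the retinoblastoma relative p107, was higher at 42.3 against 10.1 CPM and 52.4 against 8.62 CPM. Cdkn2b, which encodes the relative p15, was under 10 CPM in every set, at 1.13 against 1.20 CPM and 0.472 against 1.93 CPM. Btg1, which slows growth, was lower at 819 against 1512 CPM and 758 against 1526 CPM. Tob1, of the same family, was lower at 20.0 against 39.02 CPM and 18.9 against 28.9 CPM.

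Cdkn1a, the p21 inhibitor that p53 induces, was not called, at 328 against 413 CPM and 417 against 483 CPM. Of 8 measured p53 targets 1 was higher and 2 lower. Mdm2, which brings p53 down, was lower at 134 against 235 CPM and 146 against 237 CPM. Plk2, a kinase of the polo family, was lower at 44.0 against 79.6 CPM and 41.7 against 83.6 CPM.

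Cdkn2a, the gene whose locus drives the Cre recombinase, was lower in cycling cells of both sorts. In the Tom positive library it was at 17.5 CPM (Poisson interval 13.4 to 22.4) in cycling and 60.0 CPM (56.2 to 64.1) in 0-UMI cells, a ratio of 0.291 (0.221 to 0.377). In the Tom negative library it was at 12.3 CPM (9.70 to 15.3) and 27.7 CPM (25.4 to 30.2), a ratio of 0.443 (0.344 to 0.562). On the log2 scale these are -1.72 and -1.11, and over 12 alternatives each they stayed between -1.90 and -1.35 and between -1.38 and -0.89. Among them were cells of at least 20000 UMIs only, which gave -1.90 and -1.21.

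The level of Cdkn2a was lower in each bin of 10 division UMIs or more than at 0 UMIs in both libraries. With 0, 1 to 4, 5 to 9, 10 to 14, 15 to 39 and at least 40 UMIs, it was at 60.0, 46.1, 47.7, 18.8, 23.4 and 15.1 CPM in the Tom positive library. The same bins held 27.7, 24.6, 14.6, 14.3, 10.5 and 12.98 CPM in the Tom negative library. The bins of 5 to 9 and 10 to 14 UMIs rested on 23 and 7 Cdkn2a UMIs in the Tom positive library. In the Tom negative library they rested on 20 and 7. The intervals of these neighbouring bins overlapped in each library, so the point of the drop was not resolved. Among cycling cells the sorts were close, with a log2 difference of 0.48 against 1.09 in 0-UMI cells, and the intervals of both libraries overlapped in each bin of 10 UMIs or more.

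Detection of Cdkn2a has to be read at equal depth. A Cdkn2a UMI was seen in 40.2% of cycling and 39.8% of 0-UMI cells of the Tom positive library, and in 29.4% and 25.6% in the Tom negative library. Thinned to 5000 UMIs, the shares were 9.20% against 21.0% and 4.38% against 11.3%, so the order appeared once the greater depth of cycling cells was removed. In barcodes gated as epithelial cells (medians of 62817 and 40099 UMIs), 0 of 24 and 0 of 20 held a Cdkn2a UMI, which allows shares of up to 14.2% and 16.8%.

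The tdTomato transcript itself was close in cycling and 0-UMI cells of the Tom positive library, with mitosis-led and replication-led cells pooled. It was at 1080.1 CPM (1046 to 1115) and 1104 CPM (1087 to 1121), a log2 difference of -0.03 that lay between -0.19 and 0.19 over 12 alternatives. At least 500 CPM of it was reached by 71 of 87 cycling cells (81.6%) and by 76.1% of 0-UMI cells. In the Tom negative library it was at 31.3 CPM against 51.4 CPM (-0.70, between -0.83 and -0.42 over the alternatives), and 0 of 160 cycling cells reached 500 CPM against 4 of 995. Within the Tom positive library the cycling share was 7.57% (71 of 938) of cells at 500 CPM of tdTomato or more and 5.05% (16 of 317) of cells below it. Thinned, these shares were 8.10% and 6.62%, with intervals of 6.44 to 10.04 and 4.15 to 9.95 that overlapped. Cells were sorted by tdTomato, so the sort itself bears on its level in each library.

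A tdTomato UMI was seen in 96.6% of cycling cells of the Tom positive and 54.4% of those of the Tom negative library (thinned, 88.5% and 15.6%). Epithelial barcodes, at the depths given above, held one in 22 of 24 and 3 of 20 (thinned, 41.7% and 0%). Single UMIs of tdTomato in the Tom negative library are not read as expression.

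**Figure D4:**
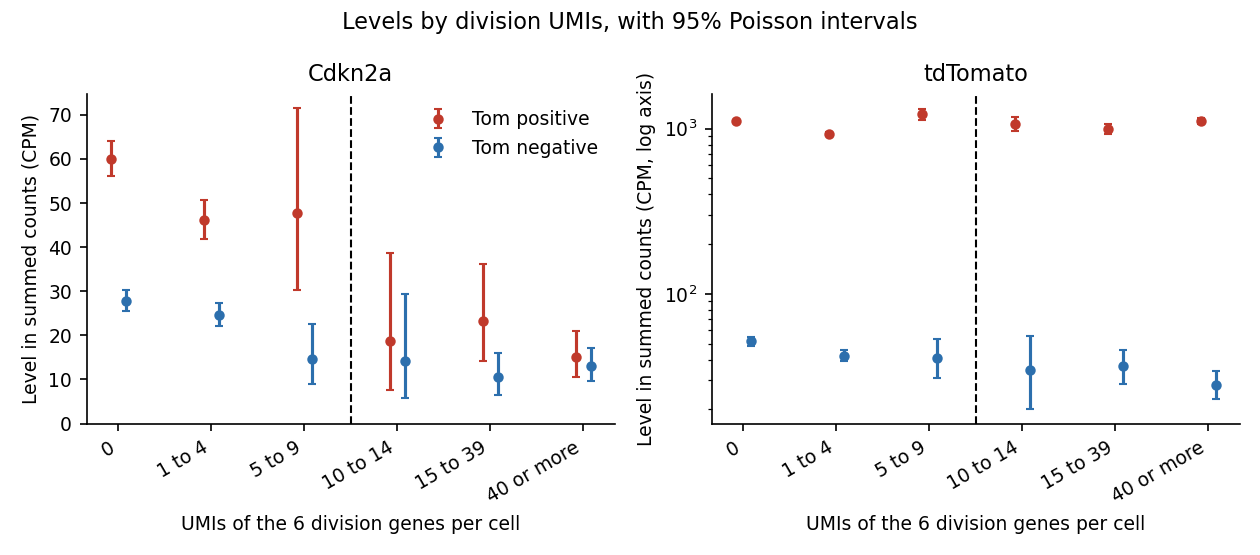
Level of Cdkn2a (left, CPM) and tdTomato (right, CPM on a log axis) in counts summed over gated cells by UMIs of the 6 division genes (x axis), for the Tom positive (red) and Tom negative (blue) libraries. Bars are 95% Poisson intervals, and cells right of the dashed line are cycling. Cdkn2a goes from 60.0 and 27.7 CPM at 0 UMIs to 15.1 and 12.98 CPM at 40 or more, while tdTomato of the Tom positive library stays between 932 and 1219 CPM.

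Genes of growth differed in the same direction as the division genes, by less. Of 17 measured genes of the nucleolus and ribosome assembly 14 were higher and 0 lower (median 0.76 and 0.73). Ncl, which encodes nucleolin, was at 383 against 226 CPM and 399 against 192 CPM. Npm1, which encodes nucleophosmin, was at 708 against 464 CPM and 767 against 468 CPM. With TMM scaling 8 of these 17 were higher. Of 17 respiratory chain genes 5 were higher (0.51 and 0.54), and with TMM scaling or in cells of at least 20000 UMIs 1 was. Cycs, which encodes cytochrome c, had the largest difference of them, at 167 against 81.0 CPM and 186 against 90.8 CPM.

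Glycolysis, the breakdown of glucose, had the opposite sign. All 14 measured genes had a difference below 0 in both libraries, 3 of them were lower by the 1.5-fold limit and 0 higher, and the median was -0.53 and -0.35. Slc2a1, the glucose transporter GLUT1, was at 142 against 309.7 CPM and 185 against 307 CPM. Pgk1, a glycolytic kinase, was at 589.8 against 1051 CPM and 605 against 966 CPM. Gpi1, the glucose phosphate isomerase, was at 480.1 against 869 CPM and 463 against 824 CPM. Ndrg1, a gene that hypoxia induces and one of the 12 lowest ranked genes, was at 52.2 against 270.3 CPM and 55.5 against 223 CPM. Vegfa, a growth factor of vessels that hypoxia also induces, was at 146 against 407 CPM and 168 against 380.2 CPM.

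Macrophage identity genes were held at levels near those of 0-UMI cells. Of 13 macrophage core genes 0 were higher and 2 lower (median -0.15 and -0.36). C1qa, a complement subunit made by tissue macrophages, was at 2065 against 1449 CPM and 1654 against 1375 CPM. Cd68, a lysosomal glycoprotein, was at 208 against 231 CPM and 229.9 against 228 CPM. Adgre1, the F4/80 antigen, was at 134 against 143 CPM and 96.4 against 119 CPM. Cd14, the endotoxin co-receptor, was among the lower ones, at 583 against 1095 CPM and 543 against 1086 CPM.

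Receptors for myeloid growth factors were also near the level of 0-UMI cells, with 1 of 10 lower. Csf1r was at 325 against 391 CPM and 299 against 382 CPM, ratios of 0.832 (0.781 to 0.886) and 0.781 (0.742 to 0.822). Csf2ra, a subunit of the receptor for CSF2, was at 128 against 119 CPM and 169 against 152 CPM. The lower member was Il13ra1, a receptor chain for interleukin 13, at 59.5 against 147 CPM and 66.4 against 117 CPM.

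A programme of tissue remodelling was lower in cycling cells. Of 9 genes of the Nos2, Mmp12 and Hmox1 programme, 8 were lower and 0 higher, with a median of -1.32 and -1.17. Hmox1, which breaks down haem, was at 246 against 1125 CPM and 206 against 825 CPM, ratios of 0.218 (0.204 to 0.234) and 0.250 (0.236 to 0.264). Spp1, the secreted osteopontin, was at 2900 against 7543 CPM and 3029 against 6498 CPM. Arg1, which consumes arginine, was at 1682 against 3946 CPM and 1789 against 3154 CPM. Mmp12, the macrophage elastase, was at 811 against 2088 CPM and 969 against 2254 CPM. Trem2, a lipid receptor, was the member not called, at 156 against 194 CPM and 152 against 165 CPM. In cells of at least 20000 UMIs 8 of 9 were lower, and without barcodes present in both libraries 6 of 9.

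Of 9 measured monocyte genes 6 were lower and 0 higher (-1.13 and -0.75), and in cells of at least 20000 UMIs 2 of 8 were lower. Cxcl3, a chemokine for neutrophils, was at 405 against 2155 CPM and 339.5 against 1609 CPM. F13a1, a clotting factor subunit of monocytes and macrophages, was at 346 against 1401 CPM and 229 against 765 CPM. Ccr2, the receptor that draws monocytes into tissue, was not called, at 176 against 194 CPM and 231 against 271 CPM. The monocyte gene with the most unequal libraries was Chil3, which encodes a chitinase-like protein, at 159 against 640.3 CPM and 229.7 against 305 CPM. Of 7 Retnla and Ear2 programme genes (median -0.38 and -0.60) 2 were lower, Ccl9 and Clec10a.

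The lowest of the ranked genes was Ppbp, a platelet-type chemokine, at 59.2 against 375 CPM and 24.9 against 269 CPM, with differences of -2.64 and -3.38. Inhba, a subunit of activin A, was at 33.3 against 142 CPM and 41.7 against 120.4 CPM. Tnfrsf9, the costimulatory receptor 4-1BB, was at 204 against 581 CPM and 169 against 495 CPM. For Ppbp, Inhba and Tnfrsf9 no single 0-UMI cell held more than 6.61% of the UMIs, so the level of that set did not rest on 1 cell.

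Of 8 measured interferon-induced genes 5 were lower and 0 higher (-1.35 and -1.33), and in cells of at least 20000 UMIs 3 of 6 were lower. The 5, Isg15, Oasl2, Irf7, Rsad2 and Rtp4, were under 10 CPM in the cycling cells of both libraries and were measured only through the 0-UMI cells, so the filter favours a difference and the count is no support for the list. Isg15, a ubiquitin-like protein, was at 4.79 against 19.54 CPM and 7.55 against 25.02 CPM. Irf7, a transcription factor of the response, was at 5.36 against 12.9 CPM and 4.88 against 13.9 CPM.

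Rsad2, the antiviral viperin, held 2 UMIs in the cycling cells of the Tom positive and 3 in those of the Tom negative library. The ratios to 0-UMI cells were 0.0188 (0.00227 to 0.0684) and 0.0140 (0.00288 to 0.0411). In 0-UMI cells it was at 29.9 and 33.7 CPM, seen in 53 of 782 and 59 of 995 cells, with 29.6% and 16.3% of its UMIs from 1 cell. Rsad2 was thus carried by few 0-UMI cells.

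Of 15 inflammatory cytokines and chemokines 5 were lower and 0 higher (-0.13 and -0.53). Ccl3, which draws monocytes and lymphocytes, was at 237 against 627 CPM and 229.9 against 397 CPM. Cxcl2, which draws neutrophils, was at 1872 against 3015 CPM and 2350 against 3611 CPM. Il1b, a cytokine of inflammation, was not called, at 867 against 714 CPM and 845 against 1214 CPM.

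MHC class II genes, which present antigen to T cells, had 1 of 8 lower and a median of -0.25 and -0.46, and with TMM scaling 3 of 7 were lower. The lower one was H2-Eb1, at 606 against 923 CPM and 1003 against 1538 CPM. Of 16 lysosome genes 1 was lower, Ctsl, a cathepsin, at 497 against 1196 CPM and 471 against 905 CPM. The 4 dendritic cell lists had 13 measured genes in all, of which 0 were called.

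The share of cycling cells was then counted along each programme. Gated cells of a library were split into 4 groups of like size by the summed CPM of a list, without regard to the division genes. The monocyte list and the Nos2, Mmp12 and Hmox1 list were already seen to be lower in these same cycling cells. Their shares give that difference in another form and are no separate support for it. Along the monocyte list the share went from 13.1% in the lowest group over 8.95% and 5.41% to 0.318% (1 of 314) in the highest, in the Tom positive library. In the Tom negative library it went from 15.6% over 9.52% and 9.28% to 1.81% (8 of 442). Median depth also went from 23782 to 15891 and from 23782 to 16888 UMIs, and thinned cells gave 14.3% to 0.637% and 15.6% to 1.81%. The groups were set from the levels before thinning. Abundant members weigh most in a summed level. In 0-UMI cells Cxcl3 and F13a1, at the levels given above, made up most of the monocyte sum of 4906 and 3407 CPM.

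Along the Nos2, Mmp12 and Hmox1 list the share went from 12.4% to 2.23% in the Tom positive and from 10.6% to 3.62% in the Tom negative library, where it was highest, at 12.2%, in the second group. Thinned cells gave 14.6% to 2.23% and 12.2% to 3.85%. The resident-type list, genes of long-lived tissue macrophages, gave a smaller span, 8.28% to 3.82% and 11.5% to 6.11%. Along the monocyte-derived dendritic list, whose lowest groups were merged into 627 and 883 cells, the share was lowest at the low end. It was 3.51%, 11.1% and 9.55% in the Tom positive and 7.36%, 10.2% and 11.3% in the Tom negative library. Thinned cells gave 3.99%, 12.4% and 10.5%, and 7.81%, 11.1% and 11.5%. Median depth also went from 16382 to 24994 and from 18895 to 24116 UMIs. Along MHC class II the order was not the same in both libraries, with 3.82%, 7.67%, 9.24% and 7.01% in the Tom positive and 8.14%, 12.5%, 9.05% and 6.56% in the Tom negative library. Cycling cells were thus seen in every group of every programme, also at high levels of MHC class II and of core macrophage genes (4.14% and 6.79% in the highest group of the latter).

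**Figure D5:**
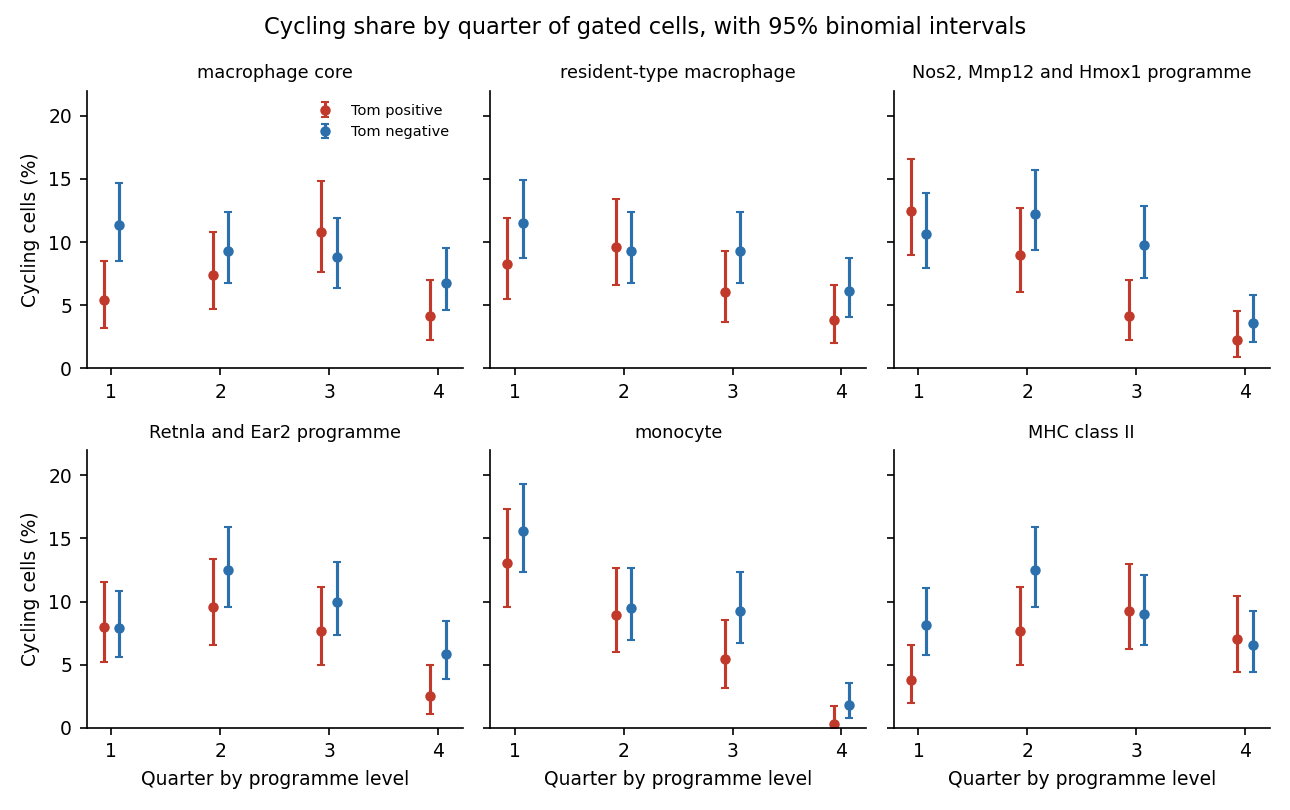
Share of cycling cells (y axis, %) in gated cells split into 4 groups by the summed level of 6 programmes (x axis, lowest to highest), in the Tom positive (red) and Tom negative (blue) libraries with exact binomial 95% intervals. Along the monocyte list the share goes from 13.1% and 15.6% in the lowest group to 0.318% and 1.81% in the highest, and along MHC class II it has no common order.

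Cdkn2a was also read within the groups of a programme. In the lowest group of the Nos2, Mmp12 and Hmox1 list Cdkn2a was at 13.8 CPM in cycling against 12.8 CPM in 0-UMI cells of the Tom positive library, and at 9.30 against 8.27 CPM in the Tom negative library. In the highest group it was at 14.04 against 97.4 CPM and at 19.9 against 40.8 CPM, from 7 and 16 cycling cells. The difference between these differences was not tested.

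The cycling cells of the sorts were then compared with each other. Of 8635 genes at 10 CPM or more in either library, 347 (4.02%) were higher and 167 (1.93%) lower by at least 1.5-fold in the Tom positive cycling cells. In 0-UMI cells 102 of 7941 (1.28%) were higher and 97 (1.22%) lower. The Tom positive cycling cells were fewer, 87 against 160, and 59 of the 347 higher genes (17.0%) drew at least 50% of their UMIs from 1 cell, as did 3 of the 167 lower genes. Without doublets 218 genes were higher, and without barcodes present in both libraries 1042 were higher and 845 lower. Of 62 mitotic list genes, Aspm (0.71) and Ckap2l (0.63), both spindle proteins, were higher and 0 were lower, and of 59 licensing, fork and nucleotide genes 0 were called. Of 17 genes of the step from G1 to S phase 1, Cdc25a (0.65), was higher, and of 13 repair genes 1 was higher. Of 16 histones and nuclear proteins of S phase, Hist1h4d (1.07) was higher and Hist1h2ap (-2.16) lower. All 13 measured cell cycle brakes differed by less than 1.5-fold.

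Single cells weighed heavily on the top of the ranking. Gzmc, a granzyme of killer lymphocytes, was at 202 against 0.629 CPM (log2 difference 6.96), with 61.5% of its UMIs in the Tom positive cycling cells from 1 cell. Gzmd, its neighbour in the family, was at 79.505 against 0.315 CPM (5.94), with 93.6% from the same cell, which also held the most Il2rb. Without barcodes present in both libraries their differences were 1.02 and 1.30. Leaving out doublets or cells of other-lineage markers, neither of which removes this cell, gave 7.02 and 7.04 for Gzmc. These granzymes thus came mostly from 1 of the 87 cells, though the rest of the Gzmc UMIs lay in other cells. That cell also held 58 UMIs of Il2rb and 12 of Nkg7, both T and NK cell genes. The gated set thus holds at least 1 cell with transcripts of killer lymphocytes.

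Reln and Mmrn1, genes of lymphatic endothelium, were at 78.9 against 0.157 CPM and 58.4 against 0.157 CPM, with 56.8% and 58.0% of their UMIs from 1 cell. That cell had 83031 UMIs, was called a doublet and held endothelial transcripts such as Cdh5. Without doublets the log2 differences of Reln and Mmrn1 were 0.91 and 1.09 in place of 6.11 and 5.68, and without barcodes present in both libraries 0.00 and 0.91. Fabp4, a fatty acid carrier of macrophages and endothelium, was at 53.3 against 12.6 CPM (2.00), with 70.9% of its UMIs from a cell with markers of another lineage, and differed by 0.39 without such cells.

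Resident-type macrophage genes were higher in the Tom positive cycling cells, 9 of 9 measured, with a median of 1.26 (0.87 in 0-UMI cells). The count was 9 of 9 without doublets, without cells of other-lineage markers and with a mitochondrial limit of 5%, and 7 of 8 without barcodes present in both libraries. Maf, a transcription factor of resident macrophages, was at 226 against 93.6 CPM. Stab1, a scavenger receptor, was at 196 against 81.0 CPM. Pf4, a chemokine abundant in these cells, was at 1583 against 794 CPM. The top cell of the Tom positive cycling cells held 6.73% of the UMIs of Maf, 9.21% of those of Stab1 and 9.42% of those of Pf4, so these levels did not rest on 1 cell. Lyve1, a hyaluronan receptor also found on lymphatic endothelium, was at 45.7 against 1.89 CPM (4.01, and 2.52 without doublets), with 34.0% from 1 cell. In 0-UMI cells Maf, Pf4 and Lyve1 had the same order with differences of 0.87, 0.88 and 1.34.

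Of 14 inflammatory genes 5 were higher in the Tom positive cycling cells and 1, Cxcl1, lower, at 36.9 against 72.2 CPM. Ccl7 encodes a ligand of Ccr2 and was at 297 against 100.1 CPM in cycling cells (1.56) and at 298 against 277 CPM in 0-UMI cells (0.11). Ccl2, the main ligand of Ccr2, was at 604 against 282 CPM (1.10) in cycling and 509.9 against 423 CPM (0.27) in 0-UMI cells. Of the UMIs of Ccl7 in Tom positive cycling cells 23.8% came from 1 cell, and without barcodes present in both libraries its difference was 2.05. Ccl2 then differed by 1.10, but other higher members did not hold. Il6 went from 0.93 to -0.007 and Tnf from 0.67 to -0.98. With a mitochondrial limit of 5% Tnf was at -0.41, so the count of higher genes depends on the cells kept. Whether the difference between the sorts itself differed between cycling and 0-UMI cells was not tested.

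Genes lower in the Tom positive cycling cells included antigen presentation, with 3 of 8 MHC class II genes and a median of -0.46 (-0.74 in 0-UMI cells). H2-Aa, a class II chain, was at 873 against 1398 CPM. H2-Eb1 was at 606 against 1003 CPM. Cd74, the invariant chain that loads them, was at 2649 against 4242 CPM. Without barcodes present in both libraries 6 of 8 were lower and with a mitochondrial limit of 5% 5 of 8.

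Gstp1, a glutathione transferase, had the same order in both sets of cells, at 18.9 against 57.3 CPM (-1.55) in cycling and 18.3 against 44.8 CPM (-1.24) in 0-UMI cells. Cacnb2, a calcium channel subunit, and Ctsk, a cathepsin, were lower by log2 differences of -3.04 and -1.73, and drew 42.0% and 31.6% of their Tom negative UMIs from 1 cell each. Without barcodes present in both libraries they had the opposite sign, at 2.19 and 1.03.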

How the data were processed

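Single-cell RNA was captured with a 10x Genomics 3' kit in 2 libraries, 1 per sort. The authors deposited counts of UMIs per gene and barcode for 31054 features, made with Cell Ranger 7.0.1 per the file headers. The build was mm10 per the submitters' processing notes. The step that called barcodes as cells is not given in the sources used here. Deposited counts were summed over cells and scaled to CPM with Python 3.11.15, numpy 2.4.6, scipy 1.17.1 and pandas 2.3.3. Intervals at 95% were exact: Poisson for a level, binomial for a share, conditional for a ratio. Thinning drew 5000 UMIs per cell. Scrublet, run in scanpy 1.11.5 on barcodes of at least 1000 UMIs, called 1.44% of 4365 and 1.45% of 6677. TMM factors came from edgeR 4.0.16. The calculation was tested on simulated data with counting error only. These held no variation between cells, so the test could not show calls that rest on 1 cell.

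The cells and the 40 gene lists were chosen with earlier results of these data known. Named genes are the 12 highest and 12 lowest called genes at 50 CPM or more by the smaller difference of both libraries, the 12 each way between the sorts, up to 6 members of a list, the rule genes, Cdkn2a and tdTomato. Not every gene of the rankings is printed, and some items are not reported here. Rankings passed over the rule genes, genes of mitochondria, ribosomal proteins and haemoglobin, predicted genes, and genes under 1/5 of their level in fibroblasts, neutrophils or epithelial cells. Rsad2, members beyond 6 of a list and members named as exceptions were chosen after their values were seen. Alternatives changed the cell rules, doublets, shared barcodes, scaling, pseudocount and low filter.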

Additional observations from a re-analysis of the deposited data

How the results depend on the processing

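The depth of the summed counts limits low genes, 1 library per sort leaves variation between animals unmeasured, and 87 and 160 cells let a single cell set a level. No paired analysis was possible because each sort has 1 library and the labels give no replicate numbers. Of 116 values that answer a comparison under an alternative, 90 were counted as unchanged and 26 as moved. The limits for this were wide. Among the unchanged were 834 higher genes with TMM factors in place of 1201. Also among them was a ratio of cycling shares of 0.617 with a mitochondrial limit of 5%, in place of 0.766. Leaving out barcodes with over 5 times their UMIs in the other library removed no gated cell, so its values were bound to be unchanged. The causes of the moves were not tested.

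With cells of at least 20000 UMIs the tdTomato difference was 0.070 in the Tom positive and -0.47 in the Tom negative library, and with a rule of 500 CPM it was 0.040 in the Tom positive library. Against cells of 1 to 9 UMIs, 171 genes were lower, tdTomato differed by 0.19 and -0.42, and Cdkn2a by -1.35 in the Tom positive library. Without doublets 218 genes were higher in Tom positive cycling cells. A mitochondrial limit of 5%, which left 44 and 87 cycling cells, gave 673 higher and 340.0 lower between the sorts, a tdTomato difference of -0.17 in the Tom positive library and 0.90 for Ctsk. TMM factors gave 588 lower genes and -0.19 for tdTomato in the Tom positive library, and a pseudocount of 5 CPM gave 95 lower genes between the sorts. A low filter of 50 CPM tested fewer genes and gave 447 higher and 215 lower in cycling cells, 62 higher and 48 lower between the sorts, and -0.057 for the median of the G1 to S list in the Tom negative library. No low filter gave 565 lower genes in cycling cells and 1675 higher and 914 lower between the sorts.

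Leaving out any barcode present in both libraries was an alternative chosen after seeing the data, and it left 27 and 104 cycling cells. It gave a ratio of cycling shares of 0.466, 1042 higher and 845 lower genes between the sorts, and in the Tom positive library 0.12 for tdTomato and -1.35 for Cdkn2a. Between the sorts it gave 2.19 for Cacnb2, 1.03 for Ctsk, -0.43 for Gng11 and 0.00 for Reln.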
